A study of Mus musculus and Homo sapiens with 8 samples.

Results

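Histone cluster genes encode the proteins around which DNA is wound, and they were followed here through loss of ANP32B, an acidic nuclear phosphoprotein known as a histone chaperone, in mouse stem and progenitor cells and in a human leukemia line. The members are all gene symbols in the count tables that begin with HIST, a cluster number from 1 to 4, H, and the name of a linker histone (H1) or of a core histone (H2A, H2B, H3 or H4). That rule took 67 of 17097 listed mouse genes (61 core, 5 linker and 1 named as a pseudogene) and 52 of 20296 listed human genes (46 core, 4 linker and 2 named as pseudogenes). Of these symbols 39 were listed in both species.

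The mouse cells were LSK cells from C57BL/6 bone marrow, a sorted population without lineage markers that carries Sca-1 and c-Kit and includes hematopoietic stem cells with multipotent progenitors. The source was Anp32b-KO animals (KO, n = 2 libraries) or wild-type animals (WT, n = 2 libraries). The human cells were KU812, an established chronic myelogenous leukemia line with basophil features, which carried a hairpin against ANP32B (shANP32B, n = 2 libraries) or the control hairpin shNC (n = 2 libraries). The labels name 1 hairpin per group. Neither the animals' ages nor the deleted stretch of Anp32b nor any Cre driver is stated in the labels. It is also unstated whether the replicates are different animals or cultures, so p-values here reflect the spread between libraries alone, and that spread may be technical.

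Core histones build the nucleosome and linker histones bind the DNA between nucleosomes. Most of their genes sit in clusters, are switched on during S phase and give messenger RNAs that end in a conserved stem-loop in place of a poly(A) tail. Some members, among them human HIST1H1C, HIST1H2BD, HIST1H2BK and HIST1H2AC, are known to give polyadenylated transcripts as well, also in cells that are not dividing. How far a library records histone RNA therefore depends on whether poly(A) tails were selected for, and the step that picked messenger RNA for these libraries is not stated.

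The stem-loop was read from the mouse transcripts (GENCODE M21, GRCm38) as 16 bases with a 6-base stem and a 4-base loop. It was present in 45 of 67 members, and in 44 of 67 (65.7%) within the first 1000 transcript bases, a window in which 33 of 21813 other protein-coding genes (0.151%) held the same pattern. Transcripts annotated to end near the stop codon cannot show it, so its absence in the other 22 members says only that these letters are not in the annotated sequence. The windows below are shown because they mark the members on which the results turn and because the stem differed between families. They are in DNA letters, 5′ to 3′, with the 16 bases of the stem-loop in capitals.

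Hist1h1c (H1): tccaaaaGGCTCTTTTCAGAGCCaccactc
Hist1h2ac (H2A): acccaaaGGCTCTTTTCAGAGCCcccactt
Hist3h2a (H2A): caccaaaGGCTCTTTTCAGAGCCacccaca
Hist3h2ba (H2B): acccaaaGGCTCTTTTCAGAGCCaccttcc
Hist1h3e (H3): ccaaaacGGCTCTTTTAAGAGCCacctcca
Hist1h4d (H4): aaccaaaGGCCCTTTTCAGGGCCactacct
Hist1h4i (H4): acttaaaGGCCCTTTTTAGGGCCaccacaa
Hist1h4b (H4): tacaaaaGGTCCTTTTCAGGACCactcact

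All 33 stem-loops outside the H4 family began with GGCTC, whereas of the 12 in H4 genes 10 began with GGCCC and 2 with GGTCC. Of 8 distinct stem-loops, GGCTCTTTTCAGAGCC was the most frequent, in 26 members. In the annotation 53 mouse members lie on chromosome 13, 10 on chromosome 3, 3 on chromosome 11 and 1 on chromosome 6. Copies are near-identical: the median core gene shared 54.6% of its 50-base stretches with another gene, and 34 of 61 core genes shared over 50%. The median linker gene shared 2.25%, with a highest value of 32.0%. The labels do not say how reads that match several genes were treated, so a value for 1 core gene is uncertain, while family sums depend less on how such reads were divided.

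Library totals ran from 12117196 to 14085985 counts in KO, 10549358 to 15683480 in WT, 24416691 to 25358422 in shANP32B and 25354809 to 28209409 in shNC. Levels are given as CPM, counts scaled to a common library size, after TMM scaling, and 3 counts, the lowest level read as detection, stood for 0.196 to 0.286 CPM in LSK and 0.107 to 0.122 CPM in KU812 libraries. Levels of the targeted gene fit the labels: Anp32b stood at 201 and 248 CPM in KO against 793 and 730 CPM in WT, and ANP32B at 40.3 and 38.1 CPM in shANP32B against 250 and 285 CPM in shNC. All 9 LSK markers were detected (Kit at 399 and 355 CPM in KO against 334 and 371 CPM in WT), as were all 8 KU812 markers (HDC at 1217 and 1131 CPM in shANP32B against 1255 and 1092 CPM in shNC). Of the 8 KU812 markers 1 was called higher in shANP32B and 0 lower, beside 7.53% and 9.06% of all genes tested. It was CPA3, with a log2 fold change of 1.06 (adjusted p = 9.8e-06, edgeR quasi-likelihood test). Of markers of cells outside the LSK gate, 4 listed B and plasma cell genes summed to 894 and 1123 CPM in KO against 3106 and 589 CPM in WT, almost all of it Igkc. The 5 neutrophil genes summed to 761 and 676 CPM in KO against 1088 and 1064 CPM in WT. None of these 9 genes was at 0 in any library, and their part in the histone values was not tested.

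In LSK cells the question was whether histone RNA differed without Anp32b. The answer rests on a WT pair that disagreed: core histone genes summed to 396 and 330 CPM in KO against 187 and 640 CPM in WT, so both KO libraries lay between the WT libraries. Linker genes summed to 246 and 216 CPM in KO against 181 and 276 CPM in WT. No core or linker member passed the threshold (adjusted p under 0.05, edgeR quasi-likelihood test with Benjamini-Hochberg adjustment), with 54 core and 5 linker genes tested, and of all 14598 genes tested 0% passed. Anp32b itself was not called in this fit, although both KO libraries lay far below both WT libraries (edgeR log2 fold change -1.76, adjusted p = 0.148). A lack of calls here therefore does not show that histone RNA was unchanged. At an unadjusted p under 0.05, 1 core member was higher and 0 were lower, beside 335 higher (2.29%) and 322 lower (2.21%) of all genes tested. With DESeq2 1 core member was called higher, beside 5 higher and 10 lower of all 17097 genes fitted. The median log2 fold change was -0.27 over the core genes and -0.28 over the linker genes tested, against -0.01 over all genes tested.

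Each core family repeated this order. H2A genes, whose product pairs with H2B in the nucleosome, summed to 110 and 105 CPM in KO against 55.1 and 185 CPM in WT. H2B genes summed to 180 and 142 CPM in KO against 98.2 and 256 CPM in WT. H3 genes summed to 41.1 and 36.4 CPM in KO against 10.2 and 75.8 CPM in WT. In each family WT library 1 was lowest, WT library 2 highest and the KO libraries lay between them, as they did for H4, the partner of H3, at 64.8 and 47.5 CPM in KO against 23.4 and 124 CPM in WT.

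**Figure D1:**
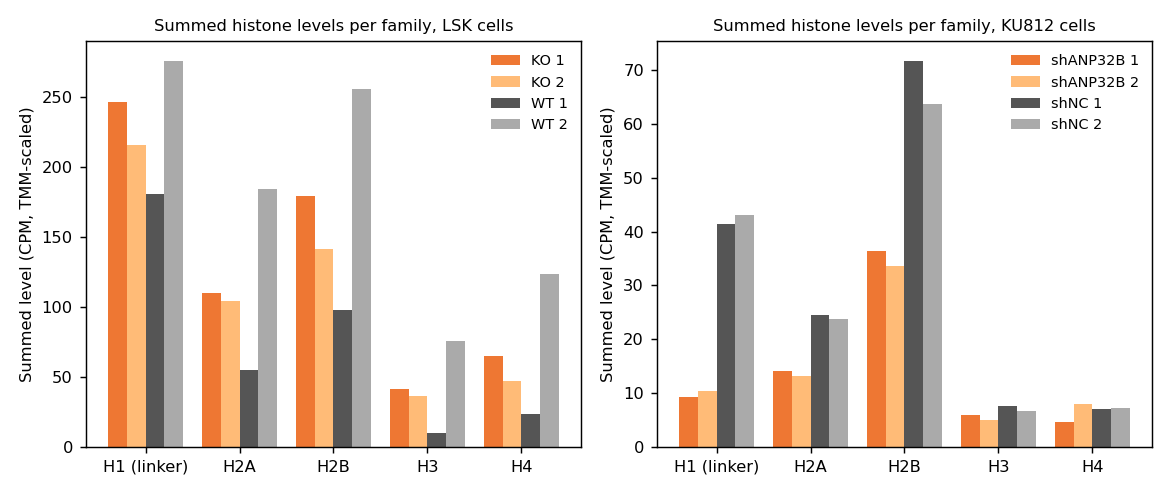
Summed CPM (TMM-scaled) of the linker and core histone families, with 1 bar per library and no error bars; LSK cells on the left (KO before WT) and KU812 cells on the right (shANP32B before shNC). In LSK cells WT 1 is the lowest and WT 2 the highest bar of every family, and in KU812 cells both shANP32B bars of H1, H2A, H2B and H3 are below both shNC bars.

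Gene by gene, WT library 1 was lowest and WT library 2 highest in 51 of 61 core genes (83.6%) and in 4 of 5 linker genes, against 12.17% of all listed genes. The median core gene in WT library 1 had 0.130 of its level in WT library 2, where the median listed gene had 0.990. In 43 core genes the level in WT library 1 was below 0.2 of that in WT library 2, which held for 2.84% of all genes. Over the 55 core genes with at least 3 counts in WT library 1, the KO mean was 3.24 times that library in the median gene and above it in 53. Against WT library 2 it was 0.441 times in the median of all 61 core genes and below in 58. Which WT library is used therefore sets the direction. The low-count filter adds to this: genes that pass it only through their KO counts lean towards higher in KO. Core genes with few counts in WT library 1 entered the fit without WT library 2 in this way. Among them were Hist1h2af with 0, Hist1h3f with 4 and Hist1h4d with 8 counts in WT library 1. Counts of genes called higher in that fit therefore do not measure how many core genes differ. Without WT library 2, 17 core genes and the linker genes Hist1h1a, Hist1h1b, Hist1h1d and Hist1h1e were called higher in KO and 0 lower, beside 2.45% of all 15352 genes tested called higher and 2.96% lower. Without WT library 1, 3 core genes (Hist1h2ac, Hist1h2bn and Hist1h2bq) were called lower and 0 higher, beside 0.146% of all 15112 genes tested called lower and 0.0926% higher. Hist1h2ac was thus called in opposite directions, with a log2 fold change of 1.39 without WT library 2 and -0.99 without WT library 1 (adjusted p = 0.00187 and adjusted p = 0.0196, edgeR), each time with a lone WT library assumed to vary like the KO pair.

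Other RNAs without a poly(A) tail followed the same order of libraries. Rn7sk, the 7SK RNA that holds back transcription elongation, stood at 181 and 91.4 CPM in KO against 10.5 and 508 CPM in WT. Rpph1, the RNA of ribonuclease P, stood at 165 and 102 CPM in KO against 8.77 and 459 CPM in WT. Rmrp, the RNA of ribonuclease MRP, stood at 86.7 and 42.2 CPM in KO against 4.45 and 246 CPM in WT. For these 3 RNAs the KO libraries again lay between the WT libraries, and WT library 1 was lowest and WT library 2 highest in 6 of the 7 listed RNAs of this kind, with Terc, at 0.975 and 0 CPM in KO against 0.196 and 1.62 CPM in WT, as the exception. The ribosomal RNA entry Rn18s-rs5 had 5019 and 2950 CPM in KO against 301 and 8554 CPM in WT. Whether the recovery of RNAs without poly(A) tails set the histone values was not tested, and in these 4 libraries it cannot be told apart from a difference in histone RNA per cell or in the number of dividing cells.

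The sum of the proliferation genes did not share this order. A list of 20 genes that are active around S phase summed to 3386 and 3522 CPM in KO against 3841 and 3483 CPM in WT. Gene by gene the order was not counted on this list. Both KO libraries were below both WT libraries in 7 of the 20 and above in 2, against 15.6% and 17.5% of all listed genes. The part of dividing cells in the histone values was not tested. Of the 11 replacement variants listed, histone genes outside the clusters whose messages are mostly polyadenylated (H2afx is known to give both forms), 1 had WT library 1 lowest and WT library 2 highest, namely H2afz, a variant of H2A, with 101 and 107 CPM in KO against 74.1 and 140 CPM in WT. H3f3b, which encodes the variant H3.3, stood at 2099 and 1905 CPM in KO against 2223 and 2417 CPM in WT.

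**Figure D2:**
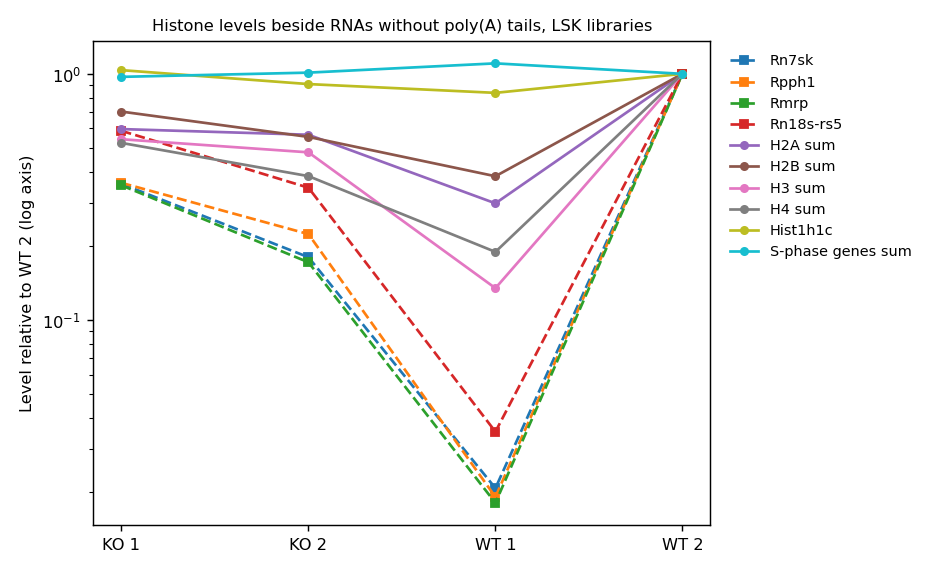
Level in each LSK library divided by that in WT 2 (log axis), for 3 RNAs without poly(A) tails and an 18S ribosomal RNA entry (dashed, squares), the summed core histone families, Hist1h1c and the summed S-phase genes (solid, circles); lines only join the libraries. WT 1 is the lowest point of the dashed lines and of the 4 core families, while Hist1h1c and the S-phase sum stay close to 1 throughout.

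Among linker genes, Hist1h1c, which encodes linker histone H1.2 (chromosome 13, 1560 exonic bases), carried 82.9% of the linker counts. It stood at 206 and 181 CPM in KO against 167 and 199 CPM in WT, so the groups overlapped, with a log2 fold change of 0.08 (SE 0.16). Its ratio of WT library 1 to WT library 2 was 0.837, unlike the other 4 linker genes. Hist1h1a had 12.7 and 7.54 CPM in KO against 3.40 and 21.4 CPM in WT. Hist1h1b had 6.01 and 5.59 CPM in KO against 1.51 and 10.7 CPM in WT. Hist1h1d had 10.8 and 10.8 CPM in KO against 4.91 and 22.2 CPM in WT. Hist1h1e, which encodes H1.4, had 10.6 and 11.0 CPM in KO against 4.26 and 22.6 CPM in WT. In all 4 the KO libraries lay inside the WT range, with log2 fold changes between -0.31 and -0.04.

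Levels of different genes were compared per kilobase of annotated exons. Hist1h1c was the most abundant member, at 132 and 116 CPM per kb in KO against 107 and 128 CPM per kb in WT. Hist1h2bg came next, at 91.4 and 69.9 CPM per kb in KO against 45.3 and 103 CPM per kb in WT, and then Hist1h2bc, at 51.4 and 42.9 CPM per kb in KO against 42.8 and 62.4 CPM per kb in WT. Hist1h2bg was above Hist1h2bc in each of the 4 libraries, although the ranges of these H2B genes over the libraries overlapped. The median core gene had 5.15 and 4.27 CPM per kb in KO against 1.28 and 11.0 CPM per kb in WT, so these members lay well above the rest.

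In 6 core genes WT library 1 had at least 0.5 of the level of WT library 2. These were Hist2h2be with a ratio of 0.540, Hist1h4i with 0.611, Hist1h2bc with 0.685, Hist2h2aa2 with 1.02, Hist3h2a with 1.07 and Hist3h2ba with 1.18. Hist2h2aa2 shared 100% of its 50-base stretches with other genes, so its ratio depends on how shared reads were divided. Hist2h2aa1, with 89.4% shared, had a ratio of 0.315. The length of annotated transcript after the stem-loop did not sort the members by this ratio: its median was 0.131 in 18 members with over 200 bases there, 0.131 in 27 with at most 200 bases, and 0.134 in the 21 core and linker members without the stem-loop.

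Hist3h2ba and Hist3h2a are an H2B and an H2A gene of cluster 3 on chromosome 11 (GRCm38, plus strand, chr11:58948920-58949533 and chr11:58954685-58956830), with the pseudogene-named Hist3h2bb-ps between them. Hist3h2ba had 88 and 118 counts in KO against 31 and 18 in WT, or 7.15 and 8.24 CPM in KO against 2.03 and 1.72 CPM in WT. Both KO libraries were above both WT libraries, here in 2 of 61 core genes against 17.5% of all listed genes. The log2 fold change of Hist3h2ba was 2.03 (SE 0.35), the largest of the core genes tested. It did not pass the threshold (adjusted p = 0.894, edgeR quasi-likelihood test), and over the 10 alternatives the adjusted p ran from 0.0142 to 1.00, under 0.05 without WT library 2 and with DESeq2. Hist3h2a, the other gene with both KO libraries above, had 26.9 and 26.9 CPM in KO against 25.1 and 23.5 CPM in WT (log2 fold change 0.15, SE 0.16), a gap of about the size of the WT spread. Both KO libraries were below both WT libraries in 1 core gene, Hist1h2br, with 0.244 and 0.0698 CPM in KO against 0.262 and 0.667 CPM in WT, levels close to the limit of detection, against 15.6% of all listed genes.

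The promoter of Hist3h2ba is shown because this gene had the largest fold change of the core genes and kept its level between the WT libraries (RefSeq, GRCm38.p6, chr11:58948661-58948960, plus strand, 250 bases before to 50 after the start). Capitals mark matches to CCAAT or to TATAAA on either strand.

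Hist3h2ba promoter: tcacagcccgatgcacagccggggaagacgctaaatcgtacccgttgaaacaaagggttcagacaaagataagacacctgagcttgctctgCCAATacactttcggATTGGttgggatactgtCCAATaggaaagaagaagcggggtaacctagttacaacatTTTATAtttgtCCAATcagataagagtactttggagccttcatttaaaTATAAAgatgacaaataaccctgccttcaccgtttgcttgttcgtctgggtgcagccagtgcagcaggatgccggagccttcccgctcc

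RefSeq promoters were matched for 58 mouse members. CCAAT was found on either strand in 5 of 5 linker, 16 of 16 H2A, 15 of 15 H2B and 10 of 10 H3 promoters and in 3 of 12 H4 promoters, against 37.4% of 32851 promoters. TATAAA was found in 4 of 5 linker, 10 of 16 H2A, 7 of 15 H2B, 4 of 10 H3 and 8 of 12 H4 promoters, against 13.6% of all. The octamer core ATTTGCA, a word known from H2B promoters, was found in 6 of 16 H2A and 5 of 15 H2B promoters, in 0 of the other families and in 4.02% of all promoters. Hist3h2a held it and Hist3h2ba did not. A match is a description of the letters and not a binding site.

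Of the other core genes in LSK cells, the most counted members of each family overlapped between the groups. Hist1h2ac, an H2A gene, had 33.3 and 34.4 CPM in KO against 12.9 and 66.9 CPM in WT. Hist1h2bc, an H2B gene, had 59.4 and 49.6 CPM in KO against 49.4 and 72.2 CPM in WT, and Hist1h2bg 56.5 and 43.2 CPM in KO against 28.0 and 63.6 CPM in WT. Hist1h3e, an H3 gene, had 11.5 and 6.07 CPM in KO against 1.96 and 15.1 CPM in WT. The KO values of these genes lay inside the WT range, as did those of Hist1h4i, at 19.2 and 17.5 CPM in KO against 16.3 and 26.7 CPM in WT, and of Hist1h4d, at 9.59 and 6.70 CPM in KO against 0.524 and 16.7 CPM in WT. Next to Hist3h2ba in order of unadjusted p came Hist2h4 (log2 fold change -1.27, SE 0.89), Hist1h2bl (-1.22, SE 0.94), Hist1h2bj (-1.04, SE 0.83) and the pseudogene-named Hist3h2bb-ps (1.17, SE 1.07), none of them past the threshold. Core genes were often thinly counted, with a median of 42.0 counts per library, and 37 of 61 averaged under 50 counts. In GENCODE 2 of the genes counted as core by their symbols, Hist1h2aj and Hist1h2al, are annotated as pseudogenes.

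**Figure D3:**
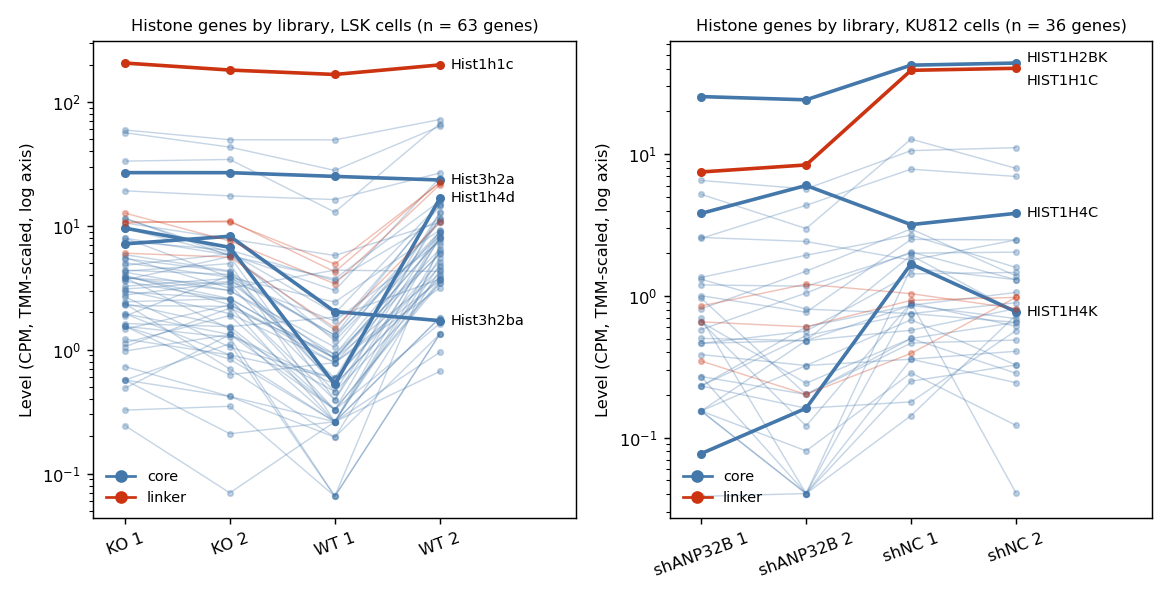
CPM (TMM-scaled, log axis) of each core (blue) and linker (red) member with a count in every library, 1 line per gene; LSK cells on the left and KU812 cells on the right, with named genes in bold. In LSK cells most lines dip at WT 1 and peak at WT 2, while Hist1h1c and Hist3h2a stay level; in KU812 cells HIST1H1C and HIST1H2BK are lower in both shANP32B libraries than in both shNC libraries.

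In KU812 cells the question was whether histone RNA differed after the ANP32B hairpin. Here the replicate sums over all core and over all linker genes lay close together, although single members varied more. Core genes summed to 61.0 and 59.7 CPM in shANP32B against 111 and 101 CPM in shNC, a ratio of 0.568. Linker genes summed to 9.33 and 10.4 CPM in shANP32B against 41.3 and 43.1 CPM in shNC, a ratio of 0.234. Of the 25 core genes tested 6 fell, HIST1H4K with almost no shANP32B counts among them, and 0 rose, and of the 3 linker genes tested 1 fell and 0 rose (adjusted p under 0.05, edgeR quasi-likelihood test), where 9.06% of all 16529 genes tested fell and 7.53% rose. Of all genes called, 45.4% were higher with TMM scaling and 55.5% with scaling by library totals, under which the counts of core and linker genes called did not change. The median log2 fold change was -0.94 over the core genes tested and -0.59 over the linker genes tested, against 0.00 over all genes tested. In bulk RNA, fewer cells that express these genes and less RNA per cell cannot be told apart.

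HIST1H1C, which encodes linker histone H1.2, fell with the smallest p of all members. It had 194 and 208 counts in shANP32B against 1091 and 991 in shNC, or 7.48 and 8.38 CPM in shANP32B against 39.0 and 40.3 CPM in shNC. Both shANP32B libraries were far below both shNC libraries. The log2 fold change was -2.32 (SE 0.16, 95% confidence interval -2.68 to -1.97, adjusted p = 1.71e-06, edgeR quasi-likelihood test). It held 91.5% of the linker counts, and without it the log2 ratio of the linker sums was -0.41 in place of -2.10. HIST1H1D, which encodes H1.3, had 0.655 and 0.605 CPM in shANP32B against 0.929 and 0.976 CPM in shNC (log2 fold change -0.59, SE 0.59). HIST1H1E, which encodes H1.4, had 0.848 and 1.21 CPM in shANP32B against 1.04 and 0.813 CPM in shNC (0.15, SE 0.56). HIST1H1B, which encodes H1.5 and was too low to be tested, had 9 and 5 counts in shANP32B against 11 and 24 in shNC. Neither tested gene passed the threshold, and at these low counts the 95% confidence interval of HIST1H1E ran from -1.06 to 1.36.

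The H2B genes, whose product pairs with H2A, held the largest share of core RNA in KU812 cells and summed to 36.4 and 33.5 CPM in shANP32B against 71.7 and 63.7 CPM in shNC. HIST1H2BK, an H2B gene with 40.7% of the core counts, stood at 25.4 and 24.1 CPM in shANP32B against 42.4 and 43.9 CPM in shNC. Both shANP32B libraries were below both shNC libraries, with a log2 fold change of -0.80 (SE 0.14, 95% confidence interval -1.10 to -0.50, adjusted p = 0.00182, edgeR quasi-likelihood test). HIST1H2BD had 5.20 and 2.98 CPM in shANP32B against 12.8 and 7.93 CPM in shNC and fell by 1.34 on the log2 scale (SE 0.32, adjusted p = 0.0115, edgeR). HIST1H2BJ had 1.00 and 0.766 CPM in shANP32B against 2.50 and 2.48 CPM in shNC and fell by 1.49 (SE 0.45, adjusted p = 0.0383, edgeR). Among the H2B genes too low to be tested, HIST1H2BE had 0 counts in both shANP32B libraries against 8 and 8 in shNC, at least 2.58-fold lower when 3 counts per library are taken as the floor. HIST1H2BI went the other way, with 10 and 2 counts in shANP32B against 1 and 0 in shNC, levels near that floor.

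H2A genes summed to 14.0 and 13.2 CPM in shANP32B against 24.5 and 23.7 CPM in shNC. HIST1H2AC, their most counted member, stood at 6.52 and 5.68 CPM in shANP32B against 10.6 and 11.1 CPM in shNC, a log2 fold change of -0.83 (SE 0.23, adjusted p = 0.0259, edgeR). HIST3H2A stood at 2.55 and 4.35 CPM in shANP32B against 7.83 and 6.95 CPM in shNC, a log2 fold change of -1.10 (SE 0.31, adjusted p = 0.0270, edgeR). HIST1H2AM, with 0.463 and 0.564 CPM in shANP32B against 1.43 and 1.46 CPM in shNC, did not pass (-1.49, SE 0.57, adjusted p = 0.0930, edgeR). In these 3 genes the groups did not overlap, and both shANP32B libraries were below both shNC libraries in 26.5% of all listed genes. HIST2H2AC lay above shNC in both shANP32B libraries, at 1.31 and 0.806 CPM in shANP32B against 0.750 and 0.651 CPM in shNC, without passing the threshold (0.59, SE 0.59).

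The ratio of the shANP32B to the shNC mean was 0.762 for the H3 sum and 0.878 for the H4 sum, against 0.565 for H2A and 0.516 for H2B. H3 genes, whose tail carries many of the known histone marks, summed to 5.90 and 5.04 CPM in shANP32B against 7.61 and 6.75 CPM in shNC, and none of the 4 tested passed the threshold. HIST1H3E, the most counted, had 2.58 and 2.42 CPM in shANP32B against 1.79 and 2.48 CPM in shNC. HIST1H3H had 1.35 and 1.94 CPM in shANP32B against 2.68 and 1.59 CPM in shNC, and HIST1H3D 0.655 and 0.121 CPM in shANP32B against 0.893 and 0.610 CPM in shNC, so all 3 overlapped. H4 genes summed to 4.67 and 7.90 CPM in shANP32B against 7.08 and 7.24 CPM in shNC, also overlapping. Within H4 the members differed: HIST1H4C, the most counted, had 3.82 and 6.01 CPM in shANP32B against 3.18 and 3.82 CPM in shNC (log2 fold change 0.49, SE 0.33, not past the threshold). HIST1H4K fell, with 2 and 4 counts in shANP32B against 47 and 19 in shNC (-3.32, SE 0.81, adjusted p = 0.0118, edgeR), a change that rests on few counts in a gene that passed the low-count filter only through its shNC libraries, so that it had to be lower in shANP32B. HIST1H4H, with 0.231 and 0.524 CPM in shANP32B against 0.750 and 0.895 CPM in shNC, did not pass (-1.12, SE 0.70).

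**Figure D4:**
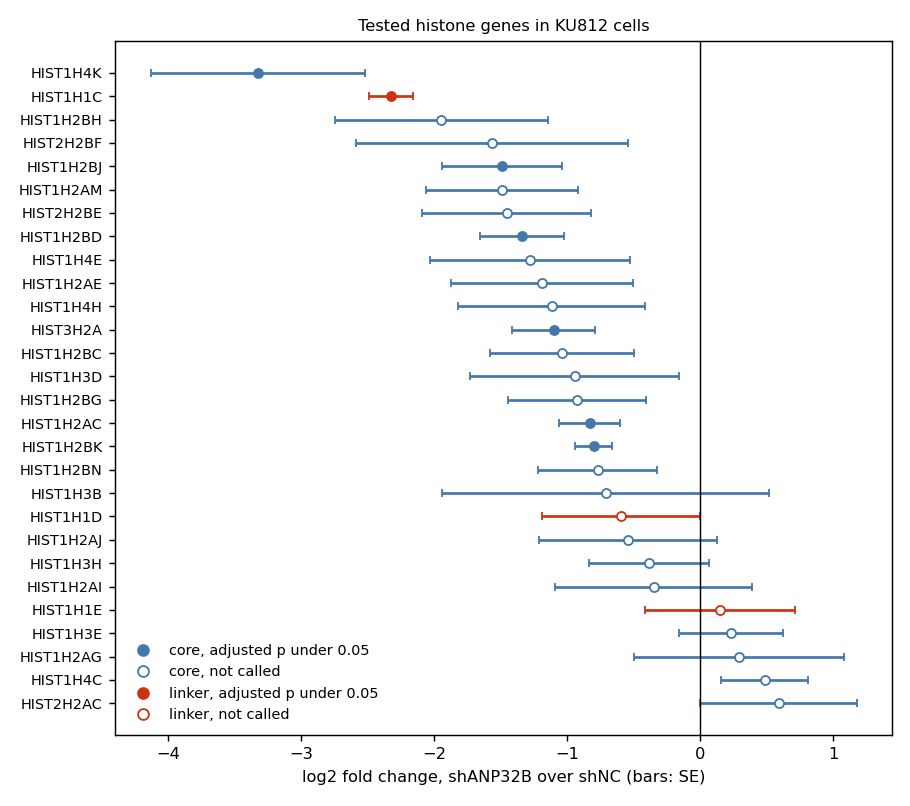
Log2 fold change (shANP32B over shNC) with its standard error for the 28 histone genes tested in KU812 cells, core in blue and linker in red, filled where the adjusted p was under 0.05 (edgeR quasi-likelihood test). The 7 filled points are all left of 0, from HIST1H4K at -3.32 to HIST1H2BK at -0.80, and 5 genes have open points to the right of 0.

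Over all core genes, called or not, both shANP32B libraries were below both shNC libraries in 23 of 46, against 26.5% of all listed genes, and above in 2, against 28.4%. The same held for 3 of 4 linker genes below. The 40 core genes that were not called summed to 20.2 and 21.6 CPM in shANP32B against 33.2 and 28.2 CPM in shNC, and of the 19 of them that were tested 15 had a log2 fold change below 0. Many were at the edge of detection: 40 of 46 core genes averaged under 50 counts, and 6 and 7 core genes had 0 counts in the shANP32B libraries against 0 and 3 in shNC. A gene that passed the low-count filter only through its shNC counts had to be lower in shANP32B, so counts over tested genes alone lean that way. HIST1H1C and HIST1H2BK passed the threshold under all 10 alternatives tried. The other 5 were lost when some single libraries were left out: HIST1H2AC without either shANP32B library (adjusted p up to 0.186, edgeR), HIST1H2BD without shANP32B library 2 (0.0601), HIST1H2BJ without either shANP32B library or shNC library 1 (up to 0.210) and with DESeq2 (0.055), HIST1H4K without shANP32B library 1 or shNC library 1 (up to 0.183), while DESeq2 gave it no adjusted p, and HIST3H2A without shANP32B library 1 (0.248). Without shANP32B library 1, HIST1H2BD and HIST1H2BK had log2 fold changes of -1.80 and -0.84. HIST1H2BH had -5.00 there, with 1 count in the shANP32B library that was left.

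The listed RNAs without poly(A) tails were examined in KU812 cells as well. RN7SK, the human 7SK RNA, stood at 13.5 and 16.1 CPM in shANP32B against 13.6 and 14.4 CPM in shNC, and RPPH1 at 2.47 and 3.39 CPM in shANP32B against 2.50 and 2.60 CPM in shNC. The 5 RNAs of this kind summed to 20.5 and 22.0 CPM in shANP32B against 20.1 and 19.4 CPM in shNC, and of the 4 tested 0 passed the threshold in edgeR. At an unadjusted p under 0.05 there were 0, beside 15.9% lower and 14.7% higher of all genes tested. Of 156 tested genes whose symbols begin with SNORA, SNORD or SCARNA, 2 rose and 0 fell, beside 7.53% and 9.06% of all genes tested. The 2 were the multi-copy SNORD115 (log2 fold change 2.59) and SNORD116 (0.88). The median log2 fold change of the 156 was -0.27, against 0.00 over all genes tested. Of the 232 listed, 34 had both shANP32B libraries above both shNC libraries and 56 had both below, against 28.4% and 26.5% of all listed genes.

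Of the 20 genes on the S-phase list 12 fell and 0 rose in KU812 cells, beside the 9.06% and 7.53% of all genes tested, with a median log2 fold change of -0.48, and the list summed to 2314 and 2374 CPM in shANP32B against 3026 and 3354 CPM in shNC. CDT1, which licenses replication origins, stood at 85.4 and 83.8 CPM in shANP32B against 151 and 143 CPM in shNC. MCM6, a subunit of the replicative helicase, stood at 101 and 111 CPM in shANP32B against 165 and 180 CPM in shNC. DTL, an adaptor of the ubiquitin ligase that removes CDT1, stood at 53.0 and 46.0 CPM in shANP32B against 85.6 and 86.0 CPM in shNC, and MCM3 at 304 and 305 CPM in shANP32B against 429 and 443 CPM in shNC. In each of these genes both shANP32B libraries were below both shNC libraries, as in 16 of the 20 on the list, against 26.5% of all listed genes. The part of cell cycle phase in the histone values was not tested.

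Of 19 factors that make or remove histone messages 4 passed the threshold in KU812 cells, 2 in each direction (21.1%), near the 16.6% of all genes tested. Of 5 transcription factors of histone genes tested 0 passed the threshold in edgeR. At an unadjusted p under 0.05 there were 2, both lower, beside 15.9% lower and 14.7% higher of all genes tested. NPAT, their S-phase coactivator, was 1 of the 5, at 92.3 and 101 CPM in shANP32B against 107 and 111 CPM in shNC. Of 10 factors of 3′ end formation 1 rose and 1 fell. LSM10, a subunit of the U7 particle that guides cleavage after the stem-loop, had 30.0 and 25.2 CPM in shANP32B against 13.5 and 20.6 CPM in shNC (log2 fold change 0.70, adjusted p = 0.0294, edgeR). ZNF473, a zinc finger protein of the same particle, had 41.3 and 36.4 CPM in shANP32B against 49.7 and 54.8 CPM in shNC (-0.43, adjusted p = 0.0459, edgeR). SLBP, the protein that binds the stem-loop, had 84.6 and 87.1 CPM in shANP32B against 85.3 and 91.3 CPM in shNC. Of 4 decay factors ERI1, an exonuclease that acts on the stem-loop, fell to 118 and 127 CPM in shANP32B, against 173 and 160 CPM in shNC (-0.44), and LSM1 rose to 57.0 and 54.5 CPM in shANP32B, against 36.5 and 43.9 CPM in shNC (0.47). These 4 calls were each lost without 1 or more single libraries: ERI1 without either shANP32B library (adjusted p up to 0.171, edgeR), LSM10 without shANP32B library 1 or shNC library 1 (up to 0.164), LSM1 without either shANP32B library or shNC library 1 (up to 0.195), and ZNF473 without either shANP32B library or shNC library 2 (up to 0.368) and with scaling by library totals (0.080). In LSK cells 0 of the 19 factors on the 3 lists passed the threshold in edgeR. Of these, 1, Lsm11, had an unadjusted p under 0.05, beside 2.29% higher and 2.21% lower of all genes tested.

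Among the replacement variants in KU812 cells, 2 fell and 1 rose of 10 tested, beside 9.06% and 7.53% of all genes tested. H1FX, which encodes the linker variant H1.10, stood at 11.3 and 12.8 CPM in shANP32B against 30.8 and 23.3 CPM in shNC (log2 fold change -1.17, SE 0.19, adjusted p = 0.00106, edgeR). H1F0, which encodes H1.0, a linker variant known from cells that leave the cycle, stood at 138 and 133 CPM in shANP32B against 214 and 181 CPM in shNC (-0.54, SE 0.12, adjusted p = 0.00643, edgeR). H3F3B, which encodes H3.3, stood at 510 and 546 CPM in shANP32B against 386 and 413 CPM in shNC (0.40, SE 0.10, adjusted p = 0.0135, edgeR). The groups did not overlap in any of the 3 genes, where 28.4% of all listed genes had both shANP32B libraries above both shNC libraries and 26.5% below. The H3F3B call was lost without shANP32B library 2, and its log2 fold change ran from 0.34 to 0.45 when single libraries were left out. In LSK cells none of the 11 variants tested passed the threshold in edgeR and 0 had an unadjusted p under 0.05, beside 2.29% higher and 2.21% lower of all genes tested. H1fx stood at 37.1 and 40.1 CPM in KO against 26.1 and 35.2 CPM in WT, and H1f0 at 103 and 101 CPM in KO against 84.7 and 86.2 CPM in WT.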

How the data were processed

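RNA-seq counts were available for 8 libraries, 2 per group. The authors deposited raw counts per gene symbol as whole numbers in a separate table for each library, as the file headers and values show. No listed gene had a sum under 10 counts across the 4 libraries of the same cells. RNA was taken up in Trizol and 1 ug entered Illumina library construction, per the labels' protocols. Per the submitters' processing notes, HISAT2, TopHat, Cufflinks and DESeq and the builds GRCm38 and GRCh38 were named, without versions or roles. No source used here states the counting tool, its strand setting or the annotation.

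Each experiment was fitted alone in R 4.3.3 with edgeR 4.0.16 (limma 3.58.1): filterByExpr, TMM, glmQLFit and glmQLFTest without covariates, with Benjamini-Hochberg adjustment over all genes tested and a threshold of 0.05. CPM are deposited counts over TMM-scaled library totals, mean counts are per library, and log2 fold changes carry edgeR's prior count of 0.125. SE and confidence intervals come from the same fit. Summed levels, medians and counts of members have no test. The procedure was tested on simulated data with 2-fold and 4-fold changes, planted only in genes above a set level, and recovered them. Simulated libraries of a group differed only by the fitted dispersions, without a disagreement like that of the WT pair. The simulation therefore does not show that such changes would be called in thinly counted histone genes or in these LSK libraries. Replicates were compared first: a chi-square of their counts gave 7.70 (KO), 47.7 (WT), 9.74 (shANP32B) and 19.6 (shNC) per degree of freedom, so none was counted as a duplicate. Floors cover counting error only.

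The members and the lists around them (variants, S phase, message production and decay, RNAs without poly(A) tails, cell markers) were chosen with earlier results of these data known. Named are all linker members, every core member past the threshold, the 3 most counted per core family, the 5 smallest p in each experiment, up to 4 list members past the threshold, and Anp32b and ANP32B; other names were chosen after their values were seen. Mouse symbols were matched to GENCODE M21 (67 of 67) and RefSeq promoters (58 of 67). No human annotation was used here. Alternatives were scaling by library totals or DESeq2 size factors, DESeq2 1.42.0, no filter or a mean of at least 50 counts, each library left out, and a replicate block.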

Additional observations from a re-analysis of the deposited data

Results flagged for a closer look

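The cluster 3 H2A gene lay on opposite sides in the 2 experiments, with every perturbed library beyond both controls in each. It was picked by this rule on the same values, from 39 symbols listed in both species. Of all listed genes, 17.5% had both KO libraries above both WT libraries, and 26.5% had both shANP32B libraries below both shNC libraries. In LSK cells Hist3h2a had a log2 fold change of 0.15, with 26.9 and 26.9 CPM in KO against 25.1 and 23.5 CPM in WT. In KU812 cells HIST3H2A had a log2 fold change of -1.10, with 2.55 and 4.35 CPM in shANP32B against 7.83 and 6.95 CPM in shNC. The LSK gap was about the size of the WT spread and did not pass the threshold (SE of the log2 fold change 0.16). The difference between the experiments was not tested.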

How the results depend on the processing

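In LSK cells the results turned on the WT pair. Calls without WT library 2 also lean towards higher in KO, because some core genes passed the low-count filter only through their KO counts. Over fits that each left out 1 library, core genes called higher ran from 0 to 17, core genes called lower from 0 to 3 and linker genes called higher from 0 to 4, beside 0 to 376 higher and 0 to 454 lower over all genes. Medians of log2 fold changes ran from -1.17 to 1.88 (core) and -1.05 to 1.33 (linker), and log2 ratios of sums from -0.82 to 0.96 (core) and -0.26 to 0.35 (linker). Leaving out 1 library turned the sign of 20 named genes, 15 of them without WT library 2. The ranges were -1.09 to 1.56 (Hist1h1a), -0.88 to 1.93 (Hist1h1b), -0.044 to 0.21 (Hist1h1c), -1.05 to 1.13 (Hist1h1d), -1.07 to 1.33 (Hist1h1e), -0.99 to 1.39 (Hist1h2ac), -0.41 to 0.14 (Hist1h2bc), -0.36 to 0.83 (Hist1h2bg), -1.86 to 0.81 (Hist1h2bj), -2.13 to 0.80 (Hist1h2bl), -1.68 to 1.34 (Hist1h2bq), -1.14 to 1.95 (Hist1h3a), -0.74 to 2.18 (Hist1h3d), -0.79 to 2.14 (Hist1h3e), -1.04 to 3.93 (Hist1h4d), -1.07 to 2.24 (Hist1h4h), -0.55 to 0.16 (Hist1h4i), -0.73 to 0.93 (Hist2h2aa1), -2.13 to 0.83 (Hist2h4) and -0.41 to 3.16 (Hist3h2bb-ps). DESeq2 called 1 core gene higher, beside 5 higher and 10 lower of all 17097 genes fitted.

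In KU812 cells core genes called lower ran from 3 to 9 when 1 library was left out. The core median ran from -1.08 to -0.81 and the linker median from -1.22 to -0.57, and the log2 ratios of sums from -0.89 to -0.75 (core) and -2.19 to -2.03 (linker). HIST1H1E ran from -0.14 to 0.38 and HIST1H3H from -0.72 to 0.044. The core median was -0.89 with scaling by library totals, -0.99 without a filter and -0.80 at a mean of at least 50 counts; the linker median was -0.95 without a filter and -2.31 at that mean, where HIST1H1C was the 1 linker gene left, and the linker log2 ratio was -0.41 without HIST1H1C.

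The correlation of same-numbered deviations was -0.07 in LSK and 0.12 in KU812 cells. With 2 pairs each, it cannot decide whether the replicate numbers mark a pairing. With the replicate block, 8 genes were called higher and 7 lower in LSK cells (0 and 0 without) and 1982 and 2182 in KU812 cells (1244 and 1497 without), the KU812 core median was -1.05 with 7 core genes called lower, and the LSK core median was 0.17. The block turned the sign in LSK cells of Hist1h1a (0.12), Hist1h1b (0.43), Hist1h1e (0.074), Hist1h2ac (0.16), Hist1h3a (0.27), Hist1h4d (0.94), Hist1h4h (0.43) and Hist2h2aa1 (0.078). The cause was not tested. Depth limits most core genes in KU812 cells, where 40 of 46 averaged under 50 counts.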
